A study of Homo sapiens with 6 samples.

Results

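The genes described here are caspases, members of the BCL2 family, the parts of the apoptosome and the genes that feed into them or hold them back. They were taken by symbol from the deposited expression table, where all 46 listed symbols had a row, out of 60569 gene names. The cells were MDA-MB-453, a breast cancer line established from a human tumour, and their RNA was read after transfection with a construct for overexpression of ZNF207 (3 libraries) or with a control vector (3 libraries), and the design text calls the 3 libraries of each group biological replicates. No other genotype or treatment is given for either group, and the time after transfection, the promoter of the construct and any selection of the cells are not stated in the labels. ZNF207, a zinc finger protein of the mitotic spindle also called BuGZ, had 885, 786 and 750.0 FPKM (fragments scaled by transcript length and by library size) with the construct, against 69.2, 67.0 and 63.7 FPKM with the control vector. The libraries matched their labels in this respect. Columns of the table were tied to the groups by their names alone.

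Apoptosis in a cell like this one can start from its mitochondria or from its surface. On the outer mitochondrial membrane, BAX and BAK1 open pores, the anti-apoptotic proteins related to BCL2 hold them shut, and the BH3-only proteins, which carry stress signals, set the pores free. Cytochrome c that leaks out assembles APAF1 into a ring, the apoptosome, which activates caspase-9, while ligands such as TRAIL bind death receptors that activate caspase-8 through the adaptor FADD. Both arms end in executioner caspases and can be blocked by inhibitor of apoptosis proteins.

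Epithelial and luminal genes marked these libraries as the labels describe them. KRT8 stood between 2808 and 2862 FPKM with the construct and between 2974 and 3064 FPKM with the control vector, and ERBB2 between 65.9 and 72.5 FPKM with the construct and between 60.6 and 68.9 FPKM with the control vector. Of 8 markers of other cell types, 6 stayed under 1 FPKM in every library, among them the basal keratin KRT5 and the leukocyte gene PTPRC, which stood at 0.0157 to 0.0531 FPKM with the construct and at 0 in the 3 control libraries. Any part of such cells in the results was not tested. The exceptions were the macrophage marker CD68, from 0.696 FPKM in ZNF207 construct replicate 3 up to 1.395 FPKM in ZNF207 construct replicate 1, and the collagen gene COL1A1, between 7.98 and 11.3 FPKM over all 6 libraries. Each library held 13061 to 13231 genes at 1 FPKM or more, and read depth is unknown.

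None of the apoptosis genes passed the test between the groups. Values were compared as log2(FPKM + 1) with limma over the 13185 genes that reached 1 FPKM in at least 3 libraries. Of the 46 genes, 39 entered this test and 0 were called at an adjusted p under 0.05, where 0.212% of all tested genes were called (0.0531% higher and 0.159% lower). Before adjustment 6 had a p under 0.05, of which 4 were higher and 2 lower with the construct, which is 15.4% of those tested, against 12.1% of all tested genes (5.08% higher and 7.03% lower). The 6 were BCL2L1, BBC3, PMAIP1, APAF1, CASP9 and CASP8, and only APAF1 and PMAIP1 were left without ZNF207 construct replicate 1 or without control replicate 2 (5.13% of those tested each time, against 11.4% and 8.2% of all tested genes). The values of the groups did not overlap for 9 genes, 7 higher and 2 lower, which is 23.1% of those tested, against 18.0% of all tested genes (7.61% higher and 10.4% lower). They were PMAIP1, CASP9, AIFM1, CASP8, TNFSF10, TNFRSF10A and XIAP, all higher, and BOK and APAF1, both lower. TNFSF10 passed the filter on low values only through the libraries with the construct and so had to differ. Without control replicate 1 the groups were apart for 14 of them (35.9%), against 29.6% of all tested genes.

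Most estimates were small and bounded. For 35 of the 39 genes (89.7%) the log2 change lay within 0.2 of 0, against 81.9% of all tested genes. The 95% interval lay wholly within 0.5 of 0 for 34 of them (87.2%), against 80.7% of all tested genes. The median log2 change was 0.02 for these genes and -0.01 for all tested genes. In bulk RNA fewer cells that express a gene and less RNA per cell cannot be told apart, which bears on all values that follow.

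**Figure D1:**
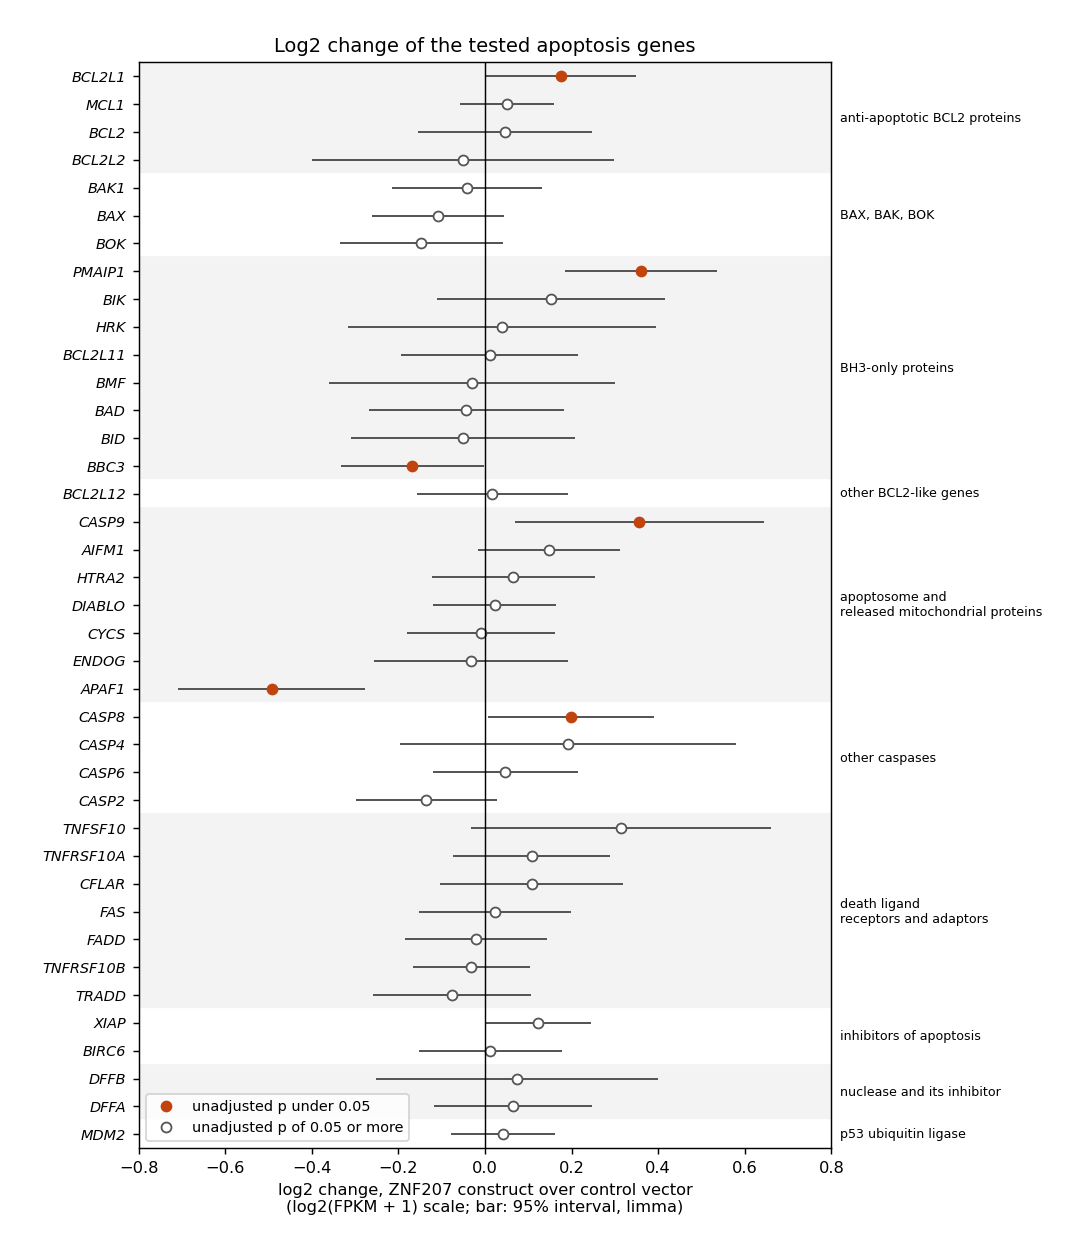
Log2 change of each of the 39 tested genes, grouped by role, with the ZNF207 construct over the control vector on the log2(FPKM + 1) scale; circles are limma estimates, bars are 95% intervals and filled circles have an unadjusted p under 0.05. On this scale APAF1 at -0.49 and PMAIP1 at 0.36 lie farthest from 0, with CASP9 also at 0.36.

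The remaining 7 genes stayed under 1 FPKM in all 6 libraries and were not tested. They were the anti-apoptotic gene BCL2A1, the BCL2-like genes BCL2L14 and BCL2L15, the inflammatory caspase gene CASP1, the death receptor caspase gene CASP10 and the decoy receptors TNFRSF10C and TNFRSF10D. BCL2A1 was listed at 0.183 FPKM in 1 library with the construct and at 0 in the other 5. CASP1 was listed at 0.191, 0.0559 and 0 FPKM with the construct, against 0 FPKM in the 3 control libraries. BCL2L14 reached 0.574 FPKM with the construct, against at most 0.219 FPKM with the control vector, and the groups overlapped.

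**Figure D2:**
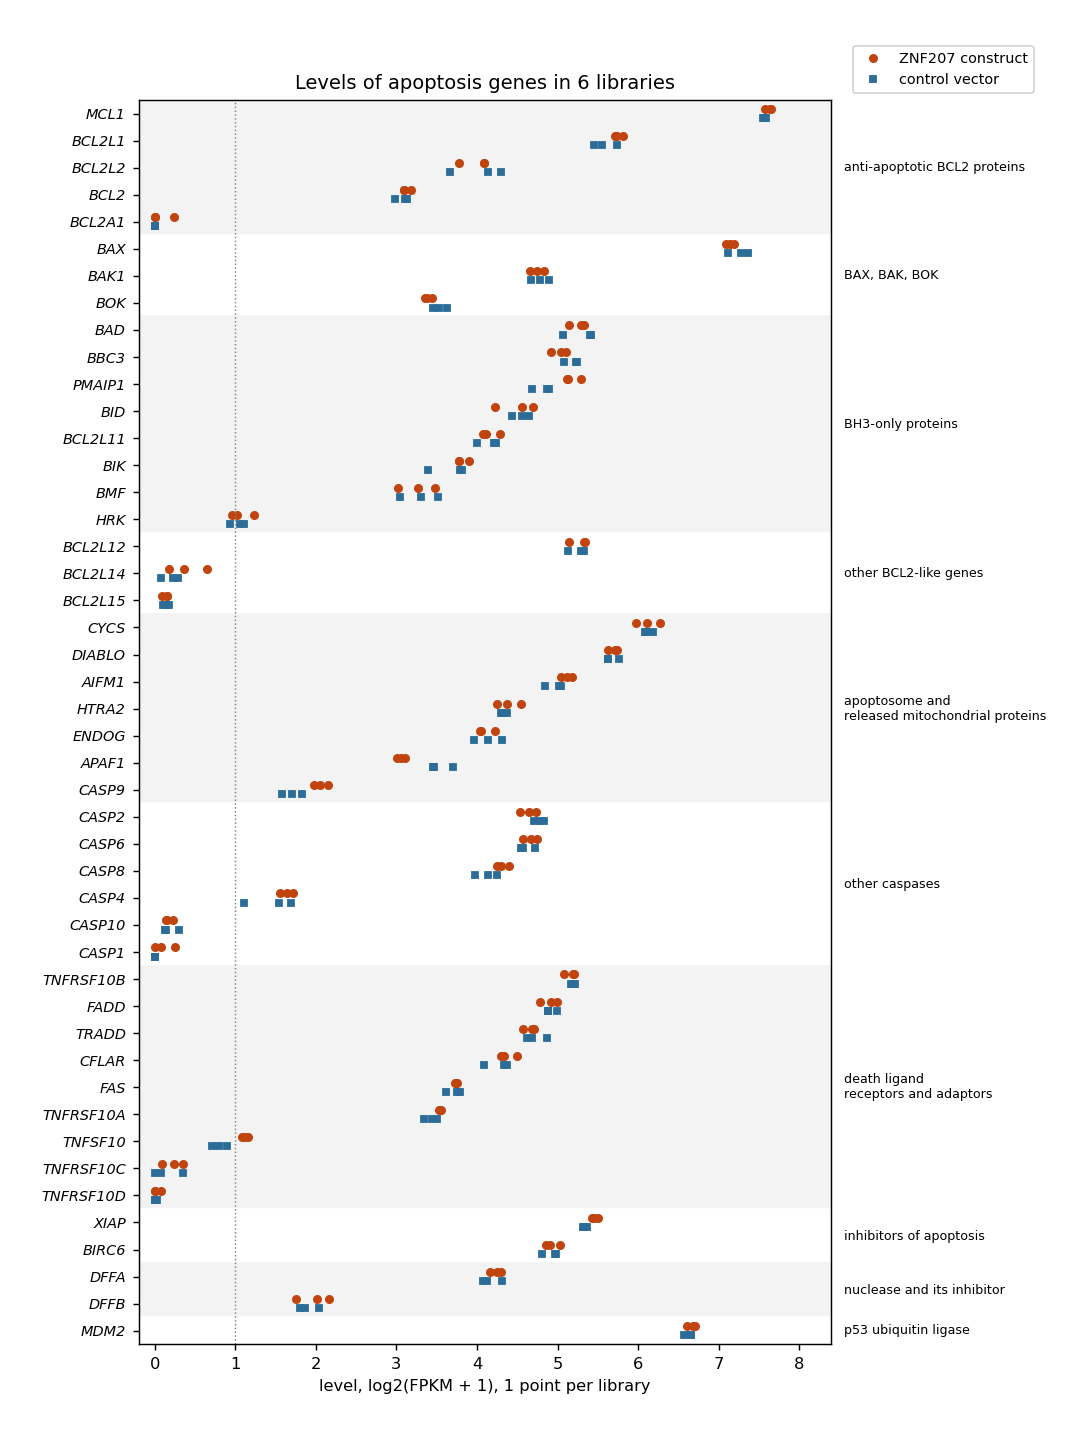
Level of all 46 genes in each of the 6 libraries on the log2(FPKM + 1) scale, with the ZNF207 construct as circles above the control vector as squares; the dotted line marks 1 FPKM. MCL1 and BAX stand highest, and 7 genes lie left of the line in every library.

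Among the anti-apoptotic genes MCL1 stood far above the rest. MCL1 encodes a short-lived guardian that binds BAK1, and had 189, 198 and 199.6 FPKM with the construct, against 188, 187 and 192 FPKM with the control vector (log2 change 0.05, SE 0.05, adjusted p = 0.722). Its groups overlapped. It took 71.6% to 72.5% of the summed FPKM of the 5 anti-apoptotic genes with the construct and 71.4% to 75.1% with the control vector. BCL2L1, which encodes BCL-XL and the pro-apoptotic splice form BCL-XS, had 52.3, 51.7 and 55.4 FPKM with the construct, against 42.8, 46.0 and 52.6 FPKM with the control vector. Its means were 53.1 ± 1.99 FPKM with the construct and 47.1 ± 4.96 FPKM with the control vector (SD, n = 3 each; log2 change 0.17, SE 0.08, adjusted p = 0.409). The log2 change was 0.11 without control replicate 1 and 0.25 without control replicate 3. Control replicate 3 lay among the libraries with the construct, and these values do not part the splice forms. BCL2, the founding member, averaged 7.71 ± 0.301 FPKM with the construct and 7.44 ± 0.454 FPKM with the control vector (adjusted p = 0.879). BCL2L2, which encodes BCL-W, averaged 14.9 ± 1.89 FPKM with the construct and 15.6 ± 3.57 FPKM with the control vector (adjusted p = 0.932). The BCL2L2 locus in the table also holds PABPN1 at 66.4 to 73.8 FPKM and the read-through BCL2L2-PABPN1 at 5.82 to 7.84 FPKM, so the split of reads among these is uncertain. As a group, 0 of 4 tested anti-apoptotic genes passed the test, where 0.212% of all tested genes were called, and the median log2 change was 0.05.

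All 3 pore-forming effectors had estimates below 0, as did 6911 of the 13185 tested genes. BAX had 141, 145 and 135 FPKM with the construct, against 138, 163 and 154 FPKM with the control vector (log2 change -0.11, SE 0.07, adjusted p = 0.565). Control replicate 1 lay among the libraries with the construct. BAK1, the effector that resides on mitochondria, had 24.2, 25.8 and 27.4 FPKM with the construct, against 26.6, 24.5 and 28.7 FPKM with the control vector (log2 change -0.04, SE 0.08, adjusted p = 0.876). BOK, a less studied relative, had 9.27, 9.37 and 9.84 FPKM with the construct, against 9.93, 10.6 and 11.4 FPKM with the control vector (log2 change -0.15, SE 0.08, adjusted p = 0.523). The BOK groups did not overlap, by a margin of under 0.1 FPKM between the nearest libraries. Of the 3 effectors 0 passed the test, and their median log2 change was -0.11, or -0.18 without control replicate 1.

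Among the BH3-only genes the estimate of PMAIP1 was above 0 and that of BBC3 below 0, and neither passed the test. PMAIP1 (chr18:59899948-59904306, hg38) encodes NOXA, which binds MCL1 and is a target of p53 and of other stress regulators. It had 38.0, 33.9 and 33.7 FPKM with the construct, against 28.2, 28.8 and 24.8 FPKM with the control vector. Every library with the construct lay above every control library. The means were 35.2 ± 2.43 FPKM with the construct and 27.3 ± 2.17 FPKM with the control vector (SD, n = 3 each), a ratio of 1.29, and the log2 change was 0.36 (SE 0.08, 95% interval 0.18 to 0.53), which did not pass the test (adjusted p = 0.107). PMAIP1 took 19.9% to 23.2% of the summed FPKM of the 8 BH3-only genes with the construct and 14.7% to 18.7% with the control vector. BBC3 encodes PUMA, a p53 target that binds all the anti-apoptotic proteins. It had 31.9, 33.4 and 29.2 FPKM with the construct, against 32.9, 37.0 and 36.6 FPKM with the control vector, and the groups overlapped. Its log2 change was -0.17 (SE 0.07, adjusted p = 0.407).

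The other BH3-only genes had adjusted p-values of 0.651 or more. BAD, which is held inactive by survival kinases, had 34.2, 39.2 and 38.2 FPKM with the construct, against 32.4, 41.8 and 41.4 FPKM with the control vector. Replicate 1 was the lowest library of both groups for BAD. BID, which caspase-8 cuts to link the surface arm to mitochondria, averaged 21.7 ± 3.67 FPKM with the construct and 22.4 ± 1.63 FPKM with the control vector. BCL2L11, which encodes BIM, averaged 16.9 ± 1.39 FPKM with the construct and 16.8 ± 1.58 FPKM with the control vector. BIK averaged 13.1 ± 0.693 FPKM with the construct and 11.8 ± 2.01 FPKM with the control vector, and its lowest value, 9.46 FPKM, was that of control replicate 1. BMF, released from the cytoskeleton under stress, had 7.12, 8.64 and 10.2 FPKM with the construct, against 7.26, 8.88 and 10.5 FPKM with the control vector. BMF increased with the replicate number in both groups, and its spread within each group was wider than the difference between the means. HRK, found mostly in neurons, was near the filter at 0.916 to 1.36 FPKM over all 6 libraries. Of the 8 BH3-only genes 0 passed the test, with a median log2 change of -0.01.

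**Figure D3:**
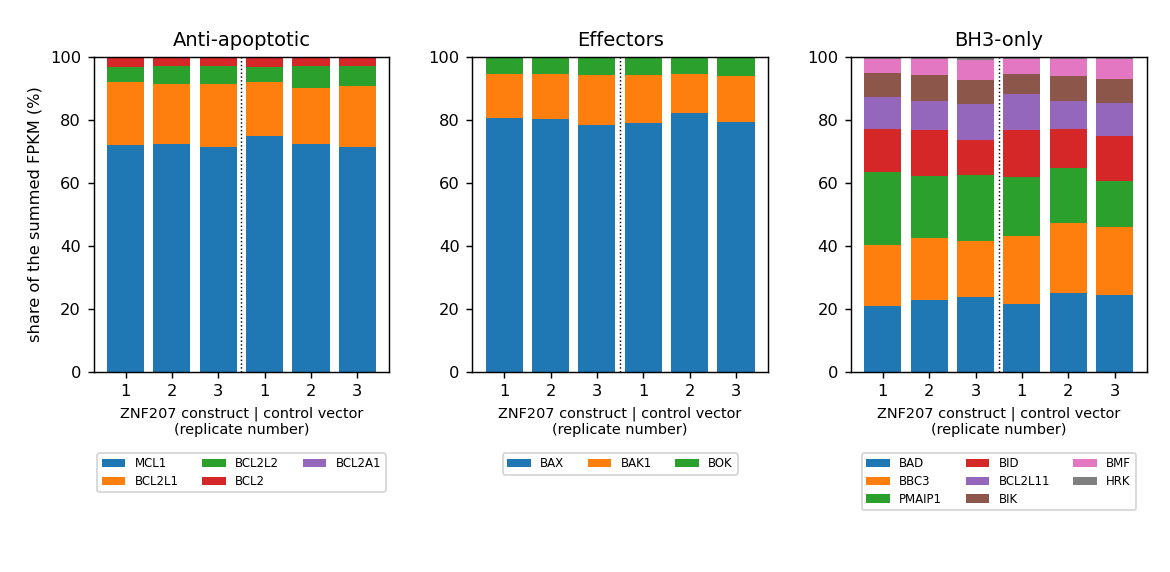
Share of each gene in the summed FPKM of its BCL2 subgroup, in percent, for each library, with the 3 ZNF207 construct libraries left of the 3 control libraries in each panel. MCL1 and BAX fill most of their bars in all libraries, and PMAIP1 takes 19.9% to 23.2% of the BH3-only bar with the construct and 14.7% to 18.7% with the control vector.

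BCL2L12, a BCL2-like gene whose product is not a classical family member, had 34.4, 39.4 and 39.1 FPKM with the construct, against 34.0, 39.3 and 38.2 FPKM with the control vector (log2 change 0.02, adjusted p = 0.955). It shares its listed locus with IRF3, which overlaps it.

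Within the apoptosome the estimates of APAF1 and CASP9 pointed opposite ways. APAF1 (chr12:98645141-98735433, hg38), the scaffold of the ring, had 7.30, 7.58 and 7.01 FPKM with the construct, against 9.97, 10.1 and 12.1 FPKM with the control vector. All 3 libraries with the construct lay below all 3 control libraries. The means were 7.30 ± 0.288 FPKM with the construct and 10.7 ± 1.18 FPKM with the control vector (SD, n = 3 each), a ratio of 0.681. The log2 change was -0.49 (SE 0.10, 95% interval -0.71 to -0.28), rank 83 by p among all tested genes, and it did not pass the test (adjusted p = 0.0848). CASP9 (chr1:15490832-15526534, hg38), the caspase that the ring activates, had 3.46, 3.14 and 2.94 FPKM with the construct, against 2.27, 1.98 and 2.55 FPKM with the control vector. These groups did not overlap either, with means of 3.18 ± 0.263 FPKM with the construct and 2.27 ± 0.284 FPKM with the control vector and a log2 change of 0.36 (SE 0.13, 95% interval 0.07 to 0.64, adjusted p = 0.306). CASP9 was the lower of the pair in every library. The table lists APAF1 in 1 locus with ANKS1B, which had 2.94 to 4.23 FPKM with the construct and 3.14 to 3.32 FPKM with the control vector, and the labels do not state whether the libraries kept strand. The 2 rows that share the CASP9 locus, CELA2A and CELA2B, were listed at 0 in all libraries.

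**Figure D4:**
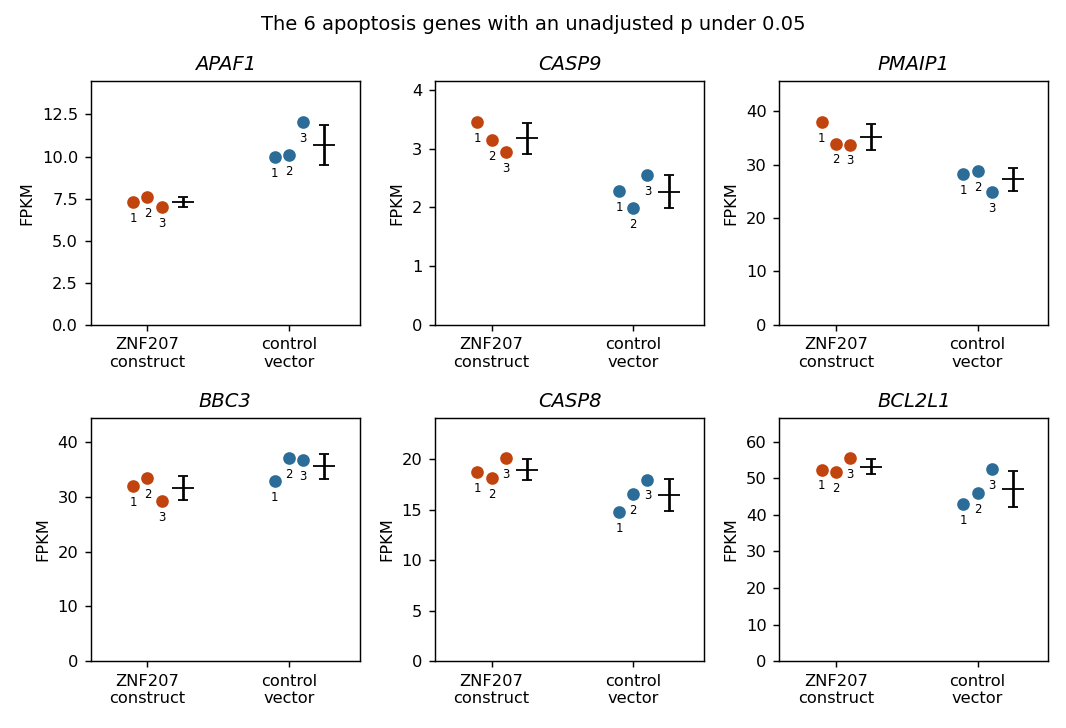
FPKM of the 6 genes with an unadjusted p under 0.05, with the ZNF207 construct left and the control vector right in each panel; points are libraries with their replicate number, and the bar beside them is the mean with its SD (n = 3). Groups are apart for APAF1, CASP9, PMAIP1 and CASP8 and overlap for BBC3 and BCL2L1, and none of the 6 passed the test over all genes.

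The gene of cytochrome c itself, CYCS, had 68.0, 76.0 and 61.6 FPKM with the construct, against 67.2, 71.7 and 67.4 FPKM with the control vector (log2 change -0.01, 95% interval -0.18 to 0.16, adjusted p = 0.975). DIABLO, which leaves mitochondria with it and frees caspases from XIAP, had 48.4, 52.5 and 51.6 FPKM with the construct, against 48.3, 48.4 and 53.5 FPKM with the control vector (log2 change 0.02, adjusted p = 0.926). Both genes overlapped between the groups. HTRA2, a protease with a similar role, averaged 20.0 ± 2.15 FPKM with the construct and 19.0 ± 0.520 FPKM with the control vector. The nuclease gene ENDOG averaged 16.3 ± 1.30 FPKM with the construct and 16.7 ± 2.11 FPKM with the control vector. AIFM1, a flavoprotein that moves to the nucleus in a caspase-free form of death, had 35.1, 31.9 and 33.8 FPKM with the construct, against 31.9, 27.6 and 31.4 FPKM with the control vector. The AIFM1 groups were apart by less than 0.1 FPKM (log2 change 0.15, SE 0.07, adjusted p = 0.46). The log2 change was 0.085 without control replicate 2 and 0.185 without control replicate 1. Of the 7 genes of this group 0 passed the test, and the median log2 change was 0.02.

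Promoter windows of the 3 genes whose estimates lay farthest from 0 on the log2(FPKM + 1) scale are given here so that their starts can be compared. RefSeq (GRCh38.p14) supplied windows from 250 bases before to 50 bases after an annotated start for 35 of the 46 genes, 63 windows in all. They are written 5′ to 3′ on the strand of the gene. Capitals mark matches on either strand to a GC box (GGGCGG), the hypoxia factor core (ACGTG), an E2F site (TTTCCCGC, TTTGGCGC, TTTCGCGC or TTTGCCGC), an interferon response core (GAAA, any 2 bases, GAAA), a TATA box (TATAAA), a p53 half-site, given by name alone, or a CCAAT box spelled as its name, and matches that overlap run together. The APAF1 window is chr12:98645040-98645339 on the plus strand, that of PMAIP1 chr18:59899746-59900045 on the plus strand, and that of CASP9, at 1 of its 2 annotated starts, chr1:15524166-15524465 on the minus strand.
APAF1: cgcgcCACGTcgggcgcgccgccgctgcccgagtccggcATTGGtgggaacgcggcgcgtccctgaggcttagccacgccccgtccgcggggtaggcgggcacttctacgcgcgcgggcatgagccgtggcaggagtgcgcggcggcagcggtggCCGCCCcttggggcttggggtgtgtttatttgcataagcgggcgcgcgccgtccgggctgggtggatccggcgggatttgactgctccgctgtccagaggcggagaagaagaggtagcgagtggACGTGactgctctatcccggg
PMAIP1: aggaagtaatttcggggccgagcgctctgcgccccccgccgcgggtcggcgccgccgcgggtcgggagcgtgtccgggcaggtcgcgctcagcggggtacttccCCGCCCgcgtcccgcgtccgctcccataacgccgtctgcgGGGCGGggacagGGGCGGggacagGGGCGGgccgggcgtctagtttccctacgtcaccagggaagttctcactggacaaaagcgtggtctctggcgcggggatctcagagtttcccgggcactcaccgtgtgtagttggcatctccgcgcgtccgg
CASP9: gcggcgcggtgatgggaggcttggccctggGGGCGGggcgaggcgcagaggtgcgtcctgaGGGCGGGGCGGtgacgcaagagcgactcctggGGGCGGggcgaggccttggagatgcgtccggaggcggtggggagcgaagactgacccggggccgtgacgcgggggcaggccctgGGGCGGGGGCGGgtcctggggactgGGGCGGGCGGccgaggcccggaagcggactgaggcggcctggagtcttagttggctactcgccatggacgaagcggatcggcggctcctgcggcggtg

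The APAF1 window held 2 hypoxia factor cores, 1 GC box and 1 CCAAT box. The PMAIP1 window held 4 GC boxes and the CASP9 window 8, with no match to the other motifs in either. A GC box was found in 45.0% of all 35116 windows of this length, a CCAAT box in 34.6% and the hypoxia factor core in 21.4%. The interferon response core was in 3.57% of all windows, and those of BBC3, BCL2A1, BCL2L14, CASP8 and TNFSF10 were among them. The E2F site was in 3.31% of all windows and, of these genes, in MDM2 alone. A p53 half-site was in 6.63% of all windows and in those of BAK1, CASP8, CASP9 and FAS, where the CASP9 match was at its other start. A TATA box was in 11.5%.

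Of the remaining tested caspases CASP8 had the estimate farthest from 0 on the log2(FPKM + 1) scale. The ratio of means, construct over control vector, was larger for CASP4 (1.20) than for CASP8 (1.15). CASP8, which death receptors activate, had 18.7, 18.1 and 20.1 FPKM with the construct, against 14.8, 16.6 and 18.0 FPKM with the control vector. The groups did not overlap, but ZNF207 construct replicate 2 and control replicate 3 were nearly level. The means were 19.0 ± 1.01 FPKM with the construct and 16.4 ± 1.61 FPKM with the control vector (SD, n = 3 each; log2 change 0.20, SE 0.09, adjusted p = 0.395). The log2 change was 0.13 without control replicate 1 and 0.26 without control replicate 3. CASP2, an initiator tied to the stress sensor PIDD1, had 23.9, 22.1 and 25.6 FPKM with the construct, against 26.5, 25.1 and 27.4 FPKM with the control vector (log2 change -0.14, SE 0.07, adjusted p = 0.495). CASP6, an executioner that cuts nuclear lamins, had 22.8, 25.7 and 24.4 FPKM with the construct, against 25.3, 22.4 and 22.8 FPKM with the control vector (log2 change 0.05, adjusted p = 0.849). Both overlapped between the groups. CASP4, the sensor of cytosolic lipopolysaccharide, averaged 2.12 ± 0.184 FPKM with the construct and 1.77 ± 0.551 FPKM with the control vector (adjusted p = 0.705), with its lowest value in control replicate 2. As a set, 0 of the 4 tested caspases other than CASP9 passed, and their median log2 change was 0.12, or 0.02 without control replicate 2.

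At the cell surface the ligand gene TNFSF10, which encodes TRAIL and is induced by interferon, was low. It had 1.11, 1.18 and 1.23 FPKM with the construct, against 0.743, 0.868 and 0.633 FPKM with the control vector (log2 change 0.31, SE 0.15, adjusted p = 0.459). With a pseudocount of 0.1 the log2 change of TNFSF10 was 0.59, farther from 0 than that of APAF1 (-0.54) on that scale. Its groups did not overlap, but it entered the test only through the libraries with the construct, so some separation was bound to be seen. TNFRSF10B, the TRAIL receptor DR5, had 35.7, 36.0 and 33.0 FPKM with the construct, against 36.3, 35.6 and 35.0 FPKM with the control vector (log2 change -0.03, SE 0.06, adjusted p = 0.877), and the groups overlapped. TNFRSF10A, the receptor DR4, had 10.5, 10.8 and 10.6 FPKM with the construct, against 9.91, 10.4 and 9.16 FPKM with the control vector (log2 change 0.11, SE 0.08, adjusted p = 0.643). Its groups did not overlap, and the log2 change was 0.064 without control replicate 3 and 0.145 without control replicate 2. The decoys TNFRSF10C and TNFRSF10D, which bind TRAIL without passing on the signal, reached at most 0.277 and 0.0533 FPKM in any library. FAS, the receptor of another death ligand, had means of 12.4 ± 0.0784 FPKM with the construct and 12.2 ± 0.829 FPKM with the control vector (adjusted p = 0.941).

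None of the adaptors behind the receptors passed the test. FADD, which joins receptors to caspase-8, had 26.6, 30.9 and 29.3 FPKM with the construct, against 28.4, 31.0 and 28.6 FPKM with the control vector (log2 change -0.02, 95% interval -0.18 to 0.14, adjusted p = 0.944). TRADD, the adaptor of the TNF receptor, averaged 24.1 ± 1.26 FPKM with the construct and 25.5 ± 2.50 FPKM with the control vector (log2 change -0.08, 95% interval -0.26 to 0.11). CFLAR, the caspase-8 decoy FLIP, averaged 19.8 ± 1.53 FPKM with the construct and 18.3 ± 2.04 FPKM with the control vector (log2 change 0.11, 95% interval -0.10 to 0.32). Of the 7 tested ligand, receptor and adaptor genes 0 passed the test, with a median log2 change of 0.02.

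Of the inhibitors, XIAP, which binds caspases directly, had 42.1, 44.4 and 42.6 FPKM with the construct, against 38.9, 39.2 and 40.3 FPKM with the control vector. The groups did not overlap, and the means of 43.0 ± 1.19 FPKM with the construct and 39.5 ± 0.702 FPKM with the control vector (SD, n = 3 each) gave a log2 change of 0.12 (SE 0.05, adjusted p = 0.414). BIRC6, a giant ubiquitin ligase of the same family, had 31.6, 28.1 and 28.9 FPKM with the construct, against 30.2, 27.0 and 30.6 FPKM with the control vector (log2 change 0.01, adjusted p = 0.964). Its groups overlapped. DFFB is the nuclease that cuts DNA between nucleosomes and had 3.47, 3.04 and 2.37 FPKM with the construct, against 3.11, 2.48 and 2.64 FPKM with the control vector (adjusted p = 0.881). DFFA, its chaperone and inhibitor, had 18.0, 16.9 and 18.6 FPKM with the construct, against 18.8, 15.9 and 16.5 FPKM with the control vector (adjusted p = 0.8), and neither gene was apart between the groups. MDM2, the ubiquitin ligase of p53 and a target of it, had 102, 96.7 and 104 FPKM with the construct, against 99.5, 100.01 and 94.1 FPKM with the control vector (log2 change 0.04, SE 0.05, adjusted p = 0.806).

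Ratios between opposing genes were formed for 3 pairs. BAX stood at 17.5, 19.2 and 18.0 times BCL2 with the construct and at 17.7, 23.6 and 20.2 times with the control vector, a difference in log2 ratio of -0.16 (exact permutation p = 0.3, adjusted over the ratios 0.3, two-sided). That difference was -0.26 without control replicate 1 and -0.056 without control replicate 2. DIABLO stood at 1.15, 1.18 and 1.21 times XIAP with the construct and at 1.24, 1.23 and 1.33 times with the control vector. CASP8 stood at 0.976, 0.969 and 0.932 of CFLAR with the construct and at 0.922, 0.860 and 0.909 with the control vector. For each of these last ratios the groups were apart, with differences in log2 ratio of -0.10 and 0.10 and an exact permutation p of 0.1 (adjusted 0.15), the smallest that 3 against 3 libraries allow. A ratio of TRAIL receptors to decoys was not formed, since control replicate 3 listed both decoys at 0.

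**Figure D5:**
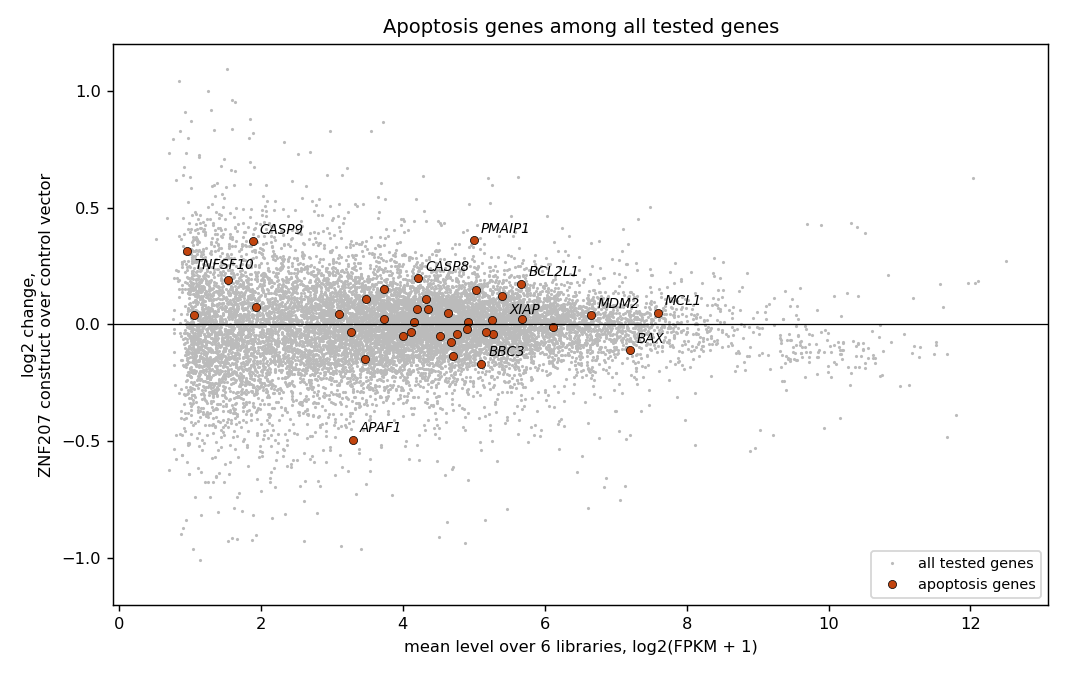
Log2 change against mean level on the log2(FPKM + 1) scale for the 13185 tested genes (grey) and the 39 apoptosis genes among them (orange), with the ZNF207 construct over the control vector; 14 genes lie beyond the plotted range of 1.2 in either direction. The apoptosis genes lie within the grey cloud, with APAF1 and PMAIP1 toward its lower and upper edge.

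Genes around this machinery were counted by list. Of 21 other p53 target genes 0 passed the test (median log2 change -0.04). In limma 0 were above and 2 below at p under 0.05 before adjustment, against 5.08% and 7.03% of all tested genes. The 2 were DDB2, a DNA repair gene at 37.4 ± 3.90 FPKM with the construct and 45.9 ± 4.17 FPKM with the control vector (log2 change -0.29, adjusted p = 0.236), and the growth inhibitor BTG2 at 47.9 ± 2.73 FPKM with the construct and 55.0 ± 1.97 FPKM with the control vector (-0.20, adjusted p = 0.236). TP53INP1 had a log2 change of 0.17 (adjusted p = 0.445), and CDKN1A, the best known p53 target, one of 0.01 (adjusted p = 0.96). That of TP53INP1 ran from 0.093 (without ZNF207 construct replicate 3) to 0.25 with 1 library left out. Of 17 tested TNF receptor partners 0 passed, with 1 higher at an unadjusted p under 0.05, against 5.08% of all tested genes. That was MLKL, the pore former of necroptosis, at 19.8 ± 0.599 FPKM with the construct and 16.6 ± 1.26 FPKM with the control vector (log2 change 0.24, adjusted p = 0.236). RIPK3, the kinase that activates MLKL, was listed at 0 in all 6 libraries. RIPK1 had a log2 change of 0.16 (adjusted p = 0.475) and DEDD one of -0.13 (adjusted p = 0.427).

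Most inflammasome genes stayed under the filter. Of 13 listed, 5 entered the limma test and 0 passed. Before adjustment 0 had a p under 0.05, where 12.1% of all tested genes had one. The sensors NLRC4 and AIM2 and the gasdermin gene GSDME were listed at 0 in all 6 libraries. GSDMB had a log2 change of -0.20 (adjusted p = 0.56), IL18 one of 0.14 (adjusted p = 0.75) and CARD8 one of -0.07 (adjusted p = 0.876). With 1 library left out the log2 change ran from -0.26 to -0.13 for GSDMB, from 0.04 to 0.22 for IL18 and from -0.18 to 0.038 for CARD8. The values nearest 0 were those without ZNF207 construct replicate 2 for GSDMB and without control replicate 2 for IL18. Of 11 genes of the execution phase, such as caspase substrates and membrane scramblases, 0 passed either threshold of the limma test. The largest differences by p were those of SPTAN1, ANO6 and XKR8, with log2 changes of -0.17, -0.12 and -0.26 (adjusted p = 0.413 to 0.504). That of XKR8 ran from -0.35 to -0.12 with 1 library left out, and was -0.12 without ZNF207 construct replicate 1.

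One neighbour of the family on the outer mitochondrial membrane fell. BNIP3L, a mitophagy receptor with a BH3-like stretch that is induced by hypoxia, had 85.8, 87.5 and 77.0 FPKM with the construct, against 107, 119 and 111 FPKM with the control vector (log2 change -0.42, SE 0.07, adjusted p = 0.047). Its relative BNIP3 had 239, 255 and 202 FPKM with the construct, against 319, 373 and 303 FPKM with the control vector (log2 change -0.52, SE 0.10, adjusted p = 0.0787). For both genes all libraries with the construct lay below all control libraries. BNIP3L and BNIP3 were counted in a list of 19 partners of the BCL2 family, not all of them on the outer membrane. Of the 19 genes 0 rose, 1 fell and 18 did not pass, with a median log2 change of -0.01, where 0.212% of all tested genes were called. The genes of this list were chosen with earlier results of these data known, so the count that follows is no result about them. Before adjustment 6 of the 19 had a p under 0.05, 2 above 0 and 4 below, against 12.1% of all tested genes (5.08% higher and 7.03% lower). Beside BNIP3L and BNIP3, the estimates below 0 were those of the channel genes VDAC1 (log2 change -0.17, adjusted p = 0.175) and VDAC3 (-0.13, adjusted p = 0.356). Those above 0 were the estimates of OPA1, which shapes the inner membrane (0.13, adjusted p = 0.333), and of XAF1, which binds XIAP (0.40, adjusted p = 0.331). The call of BNIP3L was lost when any 1 of the 6 libraries was left out (adjusted p 0.0532 to 0.16) and with TPM, median-of-ratios or quantile scaling (0.0597 to 0.0686), a pseudocount of 0.1 (0.0519), no variance trend (0.172) or no filter (0.22). Its log2 change stayed between -0.46 and -0.37 in these settings, and the adjusted p was 0.0244 with the filter at 5 FPKM and 0.0199 with a replicate block.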

How the data were processed

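The deposited table holds FPKM values, which the authors made with 1 column per library. Per the submitters' processing notes, the tools were RSEM 1.3.1, Bowtie2 and DESeq2 1.4.5 and the build hg38, and what each tool did is not given in the sources used here. Columns named NC were read as control vector and columns named 207 as ZNF207 construct, with the last digit as replicate number. FPKM values carry no read numbers: a search of 3922 low genes found at most 0.57% sharing 1 ratio between a pair of libraries, so depth, intervals for shares and detection limits are not given. At most 8 tested genes had identical values in 2 libraries of a group, and each library was counted once.

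The table had 60658 rows, and none of the 46 symbols had more than 1. Genes that reached 1 FPKM in 3 or more libraries were tested as log2(FPKM + 1) with limma 3.58.1 in R 4.3.3 (variance trend on the mean level, two-sided, Benjamini-Hochberg over 13185 genes, threshold 0.05). All adjusted p-values and 95% intervals of genes are from this test. On this log2 scale the changes of low genes come out too small. The procedure was also run on simulated libraries with planted changes, and the outcome is not given here. The genes and lists were chosen with earlier results of these data known. The text gives library values for genes with an unadjusted p under 0.05, for genes whose groups do not overlap and for the 2 highest of each role, and up to 3 genes of each further list by p. Other genes were named after their values were seen. Of the 46 genes, 33 share a listed locus with another row, and how reads were split there is not stated. Alternatives were another pseudocount, filter, scaling or variance model, a replicate block, and leaving out each library in turn.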

Additional observations from a re-analysis of the deposited data

How the results depend on the processing

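Of the 14 alternatives, none put any of the 46 genes past the adjusted threshold. The 11 genes with an unadjusted p under 0.05 or groups apart kept their direction in all 152 values computed. Much of this was fixed beforehand. Another filter or variance model or the replicate block leaves the log2 change as it is. For the 9 genes with groups apart, leaving out a library or another pseudocount cannot turn the direction. The adjusted p ran from 0.0561 to 0.308 for APAF1 and from 0.0531 to 0.321 for PMAIP1. Over all tested genes, 28 were called, against 4 with no filter, 64 with the filter at 5 FPKM, 18 with median-of-ratios scaling, 5 without a variance trend and 7 to 33 with 1 library left out. When 1 library was left out, 2 to 6 apoptosis genes had an unadjusted p under 0.05 (5.13% to 15.4%, against 8.2% to 13.2% of all tested genes), and groups were apart for 10 to 14 of them (25.6% to 35.9%, against 24.5% to 31.7%). Then the effectors' median log2 change ran from -0.18 to -0.084 and that of the caspases other than CASP9 from 0.018 to 0.145. The remaining group medians stayed within the replicate spread. In the list of BCL2 family partners the 1 call, that of BNIP3L, became 0 with a pseudocount of 0.1, no filter or no variance trend. It also became 0 with TPM, median-of-ratios or quantile scaling or any 1 library left out (0 to 0). With the filter at 5 FPKM or the replicate block 2 genes of that list were called. CARD8 turned to 0.014 without ZNF207 construct replicate 3 and to 0.038 without control replicate 1. Where fewer samples or other genes were tested, that is part of the setting; otherwise the cause was not tested.

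Same-numbered libraries deviated together with correlations of 0.136, 0.0088 and 0.175 for numbers 1, 2 and 3. Numbers 1 and 3 with the construct correlated best with the control of the same number, and number 2 with control number 3 (0.0482). These values do not settle whether the numbers are pairs, and the main test did not take them as such. With the replicate block, 145 genes were called (28 without it), and 0 of the 145 were apoptosis genes. With the block, 9 apoptosis genes had an unadjusted p under 0.05 (23.1%, against 17.2% of all tested genes). Unknown depth limits the low genes most, among them CASP9 and TNFSF10.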
